A study of Canis lupus familiaris with 37 samples.

Results

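The 4 canine tumours described here were the 3 intestinal lymphomas and the 1 T-cell lymphoma of a series of 37 RNA sequencing samples, and they were set against the 4 control samples of the same series, which were non-neoplastic lymph nodes. They were chosen by their titles. Poly-A RNA of each sample had been sequenced, and the values were read counts per gene. The other samples were 12 B-cell lymphomas and 17 cultures of lymphoid cell lines, and they entered the main model through the estimate of spread. The 4 tumours were taken from 4 canine patients with naturally occurring disease, and the labels named no genotype, treatment or age for tumours or controls. The T-cell arm was 1 dog, so nothing in it has a replicate. The labels did not name the site from which the intestinal tumours were sampled, and a difference between tumour and control cannot be told apart here from a difference between sampled tissues. The flow cytometry field disagreed with the titles, with the T-cell lymphoma entered as reference tissue, intestinal lymphoma replicates 2 and 3 as B-cell lymphoma, 3 of the controls as T-cell lymphoma and 1 as B-cell lymphoma, and the source name of control replicate 4 was that of a cell line. By the Spearman correlation over genes, control replicate 4 stood at 0.898 to 0.928 to the other controls and at 0.63 to 0.68 to the 2 T-cell lines CL-1 and OSW. Control replicates 1 to 3 stood at 0.94 to 0.966 to each other, so control replicate 4 was the least like the rest. Whether it was nearer to the cell lines than the other controls were was not tested. Control replicate 4 was kept as a control, and the main counts at an adjusted p of 1e-05 are given with and without it.

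Lymphoma is a cancer of lymphocytes, and in dogs most cases arise from B cells in the lymph nodes, while T-cell and intestinal forms are less frequent. A normal lymph node is rich in resting B cells, which carry the B cell receptor and present peptides to helper T cells on major histocompatibility complex (MHC) class II molecules. Dividing cells copy their DNA from origins licensed by the replication initiation machinery, and then part the sister chromatids at kinetochores, the protein assemblies that hold chromosomes to the spindle.

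Between 2228778 and 3914464 reads per tumour and between 1962722 and 3034152 reads per control were counted on genes. Taken as the smallest visible level, 3 counts stood for 0.766 to 1.53 CPM (counts scaled to the same library total). That floor uses the raw totals. The CPM of single genes below are also divided by TMM scaling factors, 0.9075 to 1.012 in the tumours and 1.026 to 1.169 in the controls. The floor is therefore approximate for them. The share of all reads that fell on genes was 25.74 to 28.48% in the tumours and 16.67 to 23.7% in the controls, without overlap. Genes with at least 1 count numbered 15075 to 16445 in the tumours and 17501 to 19668 in the controls, again without overlap, and the part of these differences in the results below was not tested. Control replicate 4 had the lowest share on genes (16.67%), the most genes with a count (19668) and a share of reads on several genes of 0.476%, against at most 0.143% in the other controls. That last share was 0.3631 to 0.5487% in the 17 cell line cultures, at most 0.1638% in the tumours and at most 0.2287% in the B-cell lymphomas. By this measure control replicate 4 lay in the range of the cell lines, and the reason was not tested. No pair of samples in a group differed by as little as sampling noise. Gene levels in the tumours varied more than in the controls. The median gene had a standard deviation of log2 CPM of 0.4106 over the 4 controls and of 0.6658 over the 4 tumours, and any 2 intestinal lymphomas correlated at 0.812 to 0.842 (Spearman), much as each of them did with the T-cell lymphoma (0.808 to 0.859). The defining markers of T cells, B cells and intestinal epithelium were not analysed here, because no table used here paired the gene identifiers with symbols, and the tumour type named in the titles was therefore not checked.

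The first comparison asked which genes differed between the 4 tumours and the controls. Of 15162 genes tested, 201 (1.33%) were higher and 89 (0.587%) were lower in the tumours at an adjusted p of at most 1e-05 (edgeR quasi-likelihood test with Benjamini-Hochberg adjustment), which is 290 genes (1.91%) in both directions. With the RLE size factors of DESeq2 in place of TMM these counts were 118 and 111, so that the share of lower genes went from 30.69% to 48.47%, and the median log2 fold change of all genes tested moved from 0.0883 to -0.0733. Leaving out control replicate 4 left 34 higher and 54 lower genes, and leaving out control replicate 1, 2 or 3 left 87, 60 or 95 higher and 74, 57 or 63 lower genes. Leaving out intestinal lymphoma replicate 2 or 3 left 53 or 57 lower genes. When the model held the 8 samples of the comparison alone, no gene reached 1e-05, 4675 of 13704 genes had an unadjusted p under 0.05, and at an adjusted p of 0.05 there were 981 higher (7.16%) and 1118 lower (8.16%) genes. DESeq2 called 416 and 431 genes at 1e-05 in the full set of samples. At an adjusted p of 0.05 the full model called 3250 higher (21.4%) and 2416 lower (15.9%) genes.

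**Figure D1:**
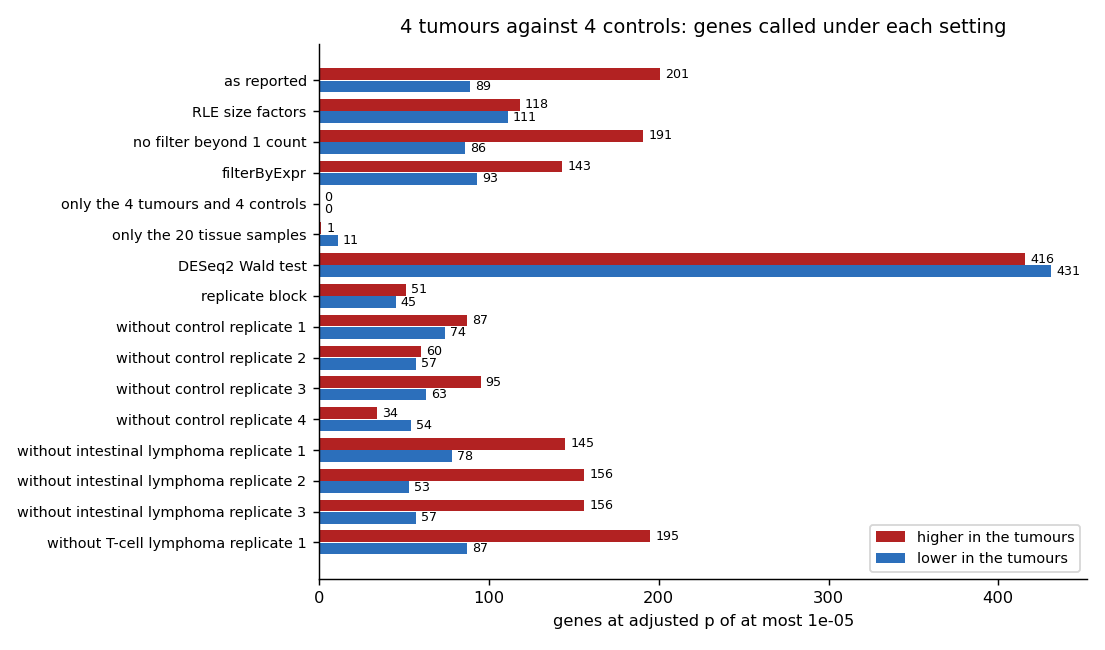
Number of genes at an adjusted p of at most 1e-05 (x axis) that were higher (red) or lower (blue) in the 4 tumours than in the 4 controls, for each setting of the processing (y axis). The bars run from 0 in the model of the 8 samples alone to 416 and 431 with DESeq2, with 201 and 89 as reported.

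In 198 of the 201 higher genes and in all 89 lower genes, each of the 4 tumours lay beyond every control. The remaining 3, ENSCAFG00000009568, ENSCAFG00000010242 and ENSCAFG00000013649, were above the controls in 3 tumours. Among all genes tested, called or not, each of the 4 tumours lay above every control in 1868 (12.3%) and below every control in 2049 (13.5%). The higher genes shared by the 4 tumours had a median log2 fold change of 1.95 (range 0.87 to 5.37), and 26 of them exceeded 3. The lower genes changed more, with a median of -3.67 (range -7.08 to -1.35), and 59 of the 89 fell by more than 3 on the log2 scale. Within these lower genes the T-cell lymphoma kept the highest level of the 4 tumours in 42, and within the higher genes intestinal lymphoma replicate 3 was highest in 73. How often each tumour was highest or lowest over all genes tested was not counted, here or below. Such counts therefore do not show a trait of these genes. Of the lower genes, 64 of 89 were also lower than in the 12 B-cell lymphomas at 1e-05 (background 1.06%), whereas 13 of the 198 higher genes were higher than in the B-cell lymphomas (background 3.11%). In the model of the 8 samples alone all 198 and all 89 genes kept their direction and had an adjusted p of at most 0.05. The genes had been chosen on these same samples and at a stricter threshold, so this outcome was largely set in advance.

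Genes of DNA replication and chromosome segregation were among the higher genes of the 4 tumours. The deposited identifiers came without symbols, and so groups were taken from the functional tables of the study, which list identifiers by term and held 70 of the 198 higher and 35 of the 89 lower genes. The study had picked those terms on these samples. By its legends the tables cover genes that it had found differentially expressed against these controls in some group of lymphomas or cell lines. The lists therefore need not hold all genes of a term, and their members had been picked on these samples too. The counts below are no independent evidence of their direction, and neither is an excess over the share of all genes tested. Each tumour's values for single genes are given as TMM-normalised CPM, in the order of control replicates 1 to 4, then intestinal lymphoma replicates 1 to 3, then the T-cell lymphoma. Such values are not corrected for gene length and are compared only within a gene.

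Of 16 genes of DNA replication initiation, the step that loads and fires origins, 8 were higher at 1e-05 and none lower, with a median log2 fold change of 1.99 against 0.0883 over all genes tested. ENSCAFG00000016106, which the tables place in replication initiation and cell division, had 12.3, 4.99, 12.8 and 7.49 CPM in the controls and 62, 116, 81.4 and 90.1 CPM in the tumours. The lowest tumour was well above the highest control, and the log2 fold change was 3.19 (SE 0.336, adjusted p = 3.99e-08). Of the 19 genes under the DNA replication keyword, 9 of which were also in the initiation list, 8 were higher and none lower, with a median of 1.39. Its member ENSCAFG00000001709 had 22.9, 25.4, 25.3 and 27.3 CPM in the controls and 87.4, 177, 116 and 263 CPM in the tumours. Here the controls lay close together while the tumours spread over a wide range, with the T-cell lymphoma highest (log2 fold change 2.67, SE 0.322, adjusted p = 3.31e-07). Another member of the keyword list, ENSCAFG00000001520, went the other way in the intestinal tumours alone, with 11.4, 23.9, 12.2 and 28.5 CPM in the controls, 1.13, 0 and 1.33 CPM in the intestinal lymphomas and 18.4 CPM in the T-cell lymphoma. It did not pass 1e-05 (3 intestinal lymphomas against controls -4.41, adjusted p = 6.66e-05), and the tables also place it in negative regulation of epithelial cell proliferation.

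Of 14 genes of sister chromatid segregation, 5 were higher and none lower (median 2.23), and of 18 genes of the kinetochore 6 were higher and none lower (median 1.74). ENSCAFG00000013954, of the segregation list, had 11.9, 5.98, 8.85 and 12.7 CPM in the controls and 38.9, 104, 80.5 and 112 CPM in the tumours (log2 fold change 3.08, SE 0.434, adjusted p = 3.23e-06). ENSCAFG00000011899, of the kinetochore list, had 11, 8.48, 14.6 and 15.7 CPM in the controls and 71.1, 131, 134 and 91.5 CPM in the tumours (3.08, SE 0.371, adjusted p = 3.31e-07). Neither gene overlapped between the groups. The 4 lists together held 54 different genes, of which 20 were higher at 1e-05, 42 were higher and 3 lower at 0.05, and 41 were above every control in all 4 tumours. In the same order, the shares over all genes tested were 1.33%, 21.4%, 15.9% and 12.3%. Intestinal lymphoma replicate 1 had the lowest tumour level in 39 of the 54, a share not counted over all genes tested. Against the 12 B-cell lymphomas none of the 54 was called at 1e-05, 11 were higher and 4 lower at 0.05 (background 19.5% and 11.5%), and the median difference was 0.24 on the log2 scale, beside 0.05 for all genes tested. Without any one of the controls, 4 genes were called in the keyword list and 4 in the initiation list, against 8 in each as reported. The number called in the segregation list went from 5 to 0 without control replicate 1, 2 or 4, and in the kinetochore list from 6 to 1 without any one of the controls, while the list medians stayed positive. In the model of the 8 samples alone 10, 13, 12 and 14 members of the keyword, initiation, segregation and kinetochore lists were higher at 0.05, and 1 member of the keyword list was lower (background 7.16% and 8.16%).

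The shared higher genes of largest change were looked at singly. ENSCAFG00000011140, listed under the G2/M and G1/S transitions and chromatid segregation, had 12.3, 3.99, 13.4 and 6.37 CPM in the controls and 77.6, 176, 136 and 145 CPM in the tumours. It had the second largest change of the shared higher genes (3.86, SE 0.447, adjusted p = 1.78e-07). The largest belonged to ENSCAFG00000001900, which no table named, with 8.89, 12, 2.14 and 4.12 CPM in the controls and 464, 28.7, 559 and 40.5 CPM in the tumours. Intestinal lymphoma replicates 1 and 3 were far above the other tumours in this gene, and the T-cell line OSW reached 246 to 418 CPM, whereas no B-cell lymphoma exceeded 0.797 CPM. Further genes were named for their terms after their values were seen, namely ENSCAFG00000016090 (negative regulation of the mitotic cell cycle, 3.45), ENSCAFG00000019338 (cell cycle, 3.44), ENSCAFG00000015642 (G2/M transition, 3.26) and ENSCAFG00000009431 (positive regulation of the cell cycle and DNA replication, 3.20). SHCBP1, an adaptor protein of dividing cells whose identifier is given in the study's text, had 28.4, 13.5, 23.8 and 11.2 CPM in the controls. Its tumour values were 92.8, 142, 146 and 195 CPM, all above the controls (2.90, SE 0.34, adjusted p = 2.3e-07).

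**Figure D2:**
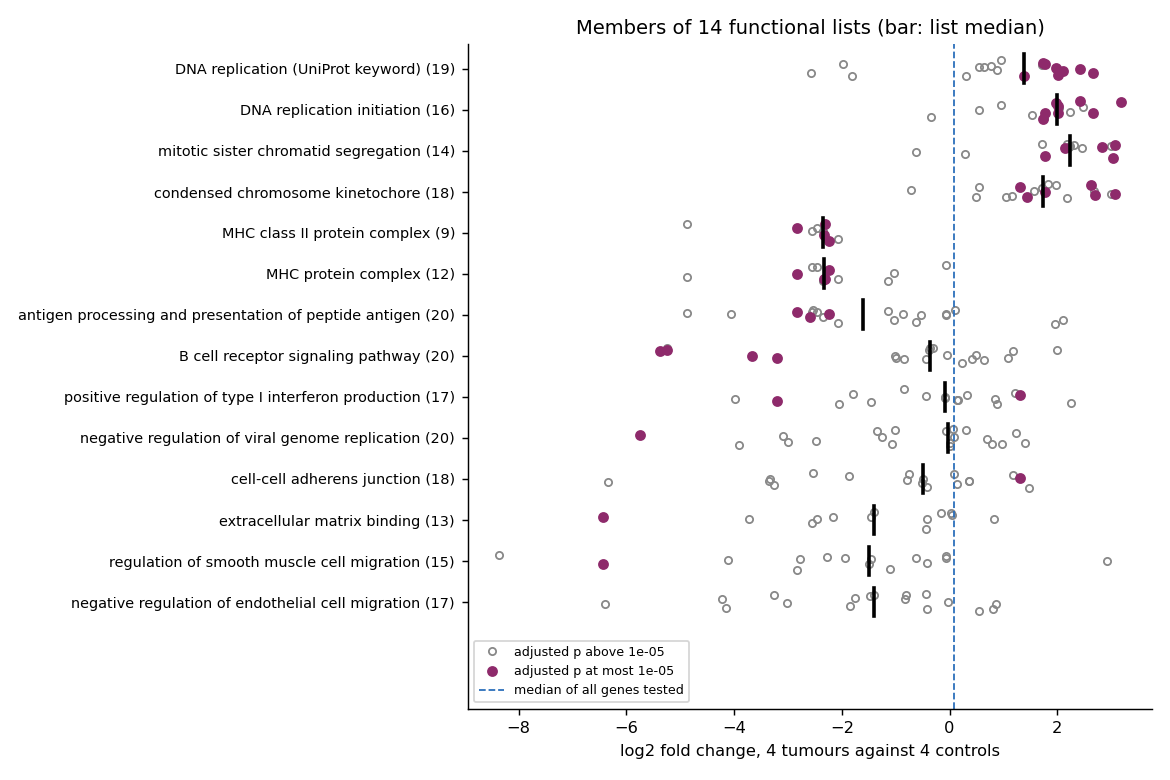
Log2 fold change of the 4 tumours against the 4 controls (x axis) for each member of 14 functional lists (y axis, number of members in brackets), with filled points for an adjusted p of at most 1e-05, a black bar for the list median and a dashed line for the median of all genes tested. The replication, segregation and kinetochore lists have medians from 1.39 to 2.23, and the MHC class II list one of -2.35.

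MHC class II genes were lower in all 4 tumours. All 9 members of the class II list lay below every control in each tumour, 4 of them at 1e-05 and all 9 at 0.05, with a median log2 fold change of -2.35. Over all genes tested, 13.5% lay below every control in each tumour, 0.587% were lower at 1e-05 and 15.9% at 0.05. ENSCAFG00000000848 had 160, 207, 234 and 163 CPM in the controls and 36.9, 14.4, 25.8 and 28.6 CPM in the tumours. The tumours were all well below the controls (-2.84, SE 0.363, adjusted p = 7.73e-07). ENSCAFG00000000806 went from 1817, 1910, 1966 and 1728 CPM to 421, 188, 455 and 428 CPM (-2.31, adjusted p = 6.56e-06), and the other called members were ENSCAFG00000032102 (-2.34) and ENSCAFG00000018101 (-2.24). Intestinal lymphoma replicate 2 had the lowest level in each of these 4. In bulk samples, fewer cells of a type and less RNA per cell cannot be told apart.

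The class II gene ENSCAFG00000000896 was the member in which the tumours parted. Its values were 227, 256, 262 and 194 CPM in the controls, 3.38, 3.7 and 4.89 CPM in the intestinal lymphomas and 155 CPM in the T-cell lymphoma. The T-cell lymphoma lay just below the lowest control, and the intestinal lymphomas differed from it by -5.28 on the log2 scale (adjusted p = 4.28e-06). ENSCAFG00000000819 had the largest fitted change of the list (-4.88) but an adjusted p of 0.000276, with 375 to 468 CPM in the controls and 7.33, 14.8, 6.22 and 27.1 CPM in the tumours. The 3 members of the wider MHC list that were not in the class II list moved less. ENSCAFG00000000500, with -1.15 (adjusted p = 0.00998), and ENSCAFG00000032222, with -1.03 (adjusted p = 0.00171), passed 0.05 and not 1e-05. ENSCAFG00000013633, with 1735 to 4176 CPM in the controls and 2546 to 3648 CPM in the tumours, overlapped between the groups (-0.07, adjusted p = 0.881). Against the B-cell lymphomas 5 of the 9 class II genes were lower at 1e-05 and all 9 at 0.05 (background 11.5%), and none of the other 3 was called at either threshold. Of 20 genes of antigen processing and presentation of peptides, which shared 7 members with the class II list, 3 were lower and none higher (median -1.61). In the model of the 8 samples alone 8 of the 9 class II genes were lower at 0.05 (background 8.16%). The 4 called class II genes went to 2 without control replicate 4 or intestinal lymphoma replicate 1 or 2, and to 1 with the replicate number as a block, while the median stayed between -2.88 and -2.10.

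Genes of B cell receptor signaling did not move as a block. Of 20 members 4 were lower at 1e-05 and none higher, beside 0.587% and 1.33% of all genes tested. The list median was -0.37 beside 0.0883 over all genes tested. The 4 were lower by a wide margin. ENSCAFG00000012677 had 202, 245, 276 and 269 CPM in the controls and 2.26, 3.24, 0.889 and 16.3 CPM in the tumours (-5.37, SE 0.511, adjusted p = 7.07e-09). ENSCAFG00000017303 had 241, 200, 300 and 261 CPM in the controls and 1.13, 6.02, 4 and 14.9 CPM in the tumours (-5.24, SE 0.376, adjusted p = 1.7e-11). In both, the T-cell lymphoma was the highest tumour, and the intestinal lymphomas were lower than it by a fitted -2.91 (adjusted p = 0.00216) and -2.08 (adjusted p = 0.00264). ENSCAFG00000007963 (84.7, 72.3, 165 and 102 CPM against 2.26, 2.78, 21.8 and 7.29 CPM) and ENSCAFG00000002171 (241, 342, 271 and 627 CPM against 29.9, 30.6, 63.6 and 37.6 CPM) changed by -3.67 and -3.20, and in these 2 genes no difference between the intestinal and T-cell tumours passed 0.05. All 4 were lower than in the B-cell lymphomas too, with log2 differences from -6.73 to -4.42, and the count of 4 held without any one of the controls, under RLE scaling and with the replicate number as a block. The count fell to 1 in the model of the 20 tissue samples and to 0 in that of the 8 samples alone. In the latter no gene of any kind passed 1e-05, and at 0.05 the list had 5 lower genes and 1 higher.

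The other 16 members varied widely between the tumours, and at 0.05 between the groups 2 of them were higher and 2 lower. Over all genes tested these shares were 21.4% and 15.9%, so these members passed no more often than genes at large. Genes with a wide spread are less likely to be called, so this spread is given as a description. The median ratio of the highest to the lowest tumour was 8.03 in these 16 genes and 1.65 between the controls, beside 2.78 and 1.88 over all genes tested. ENSCAFG00000008302 had 2061, 12, 19.6 and 92.7 CPM in the tumours against 324 to 631 CPM in the controls, so that 1 intestinal lymphoma lay above all controls and the other tumours below all of them. ENSCAFG00000015298 had 350, 658, 28 and 21.6 CPM in the tumours against 64.4 to 196 CPM in the controls, with intestinal lymphoma replicates 1 and 2 above and the other 2 tumours below. ENSCAFG00000001942 had 61.5, 4.17, 0.889 and 1.46 CPM in the tumours against 30.1 to 41.4 CPM in the controls. Their fitted log2 fold changes of 0.23, 1.18 and -0.99 therefore describe no single tumour. ENSCAFG00000015695 was the member that stood above every control in all 4 tumours, with 395, 388, 320 and 231 CPM against 54.7 to 104 CPM, and it passed 0.05 and not 1e-05 (1.99, adjusted p = 0.0179).

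**Figure D3:**
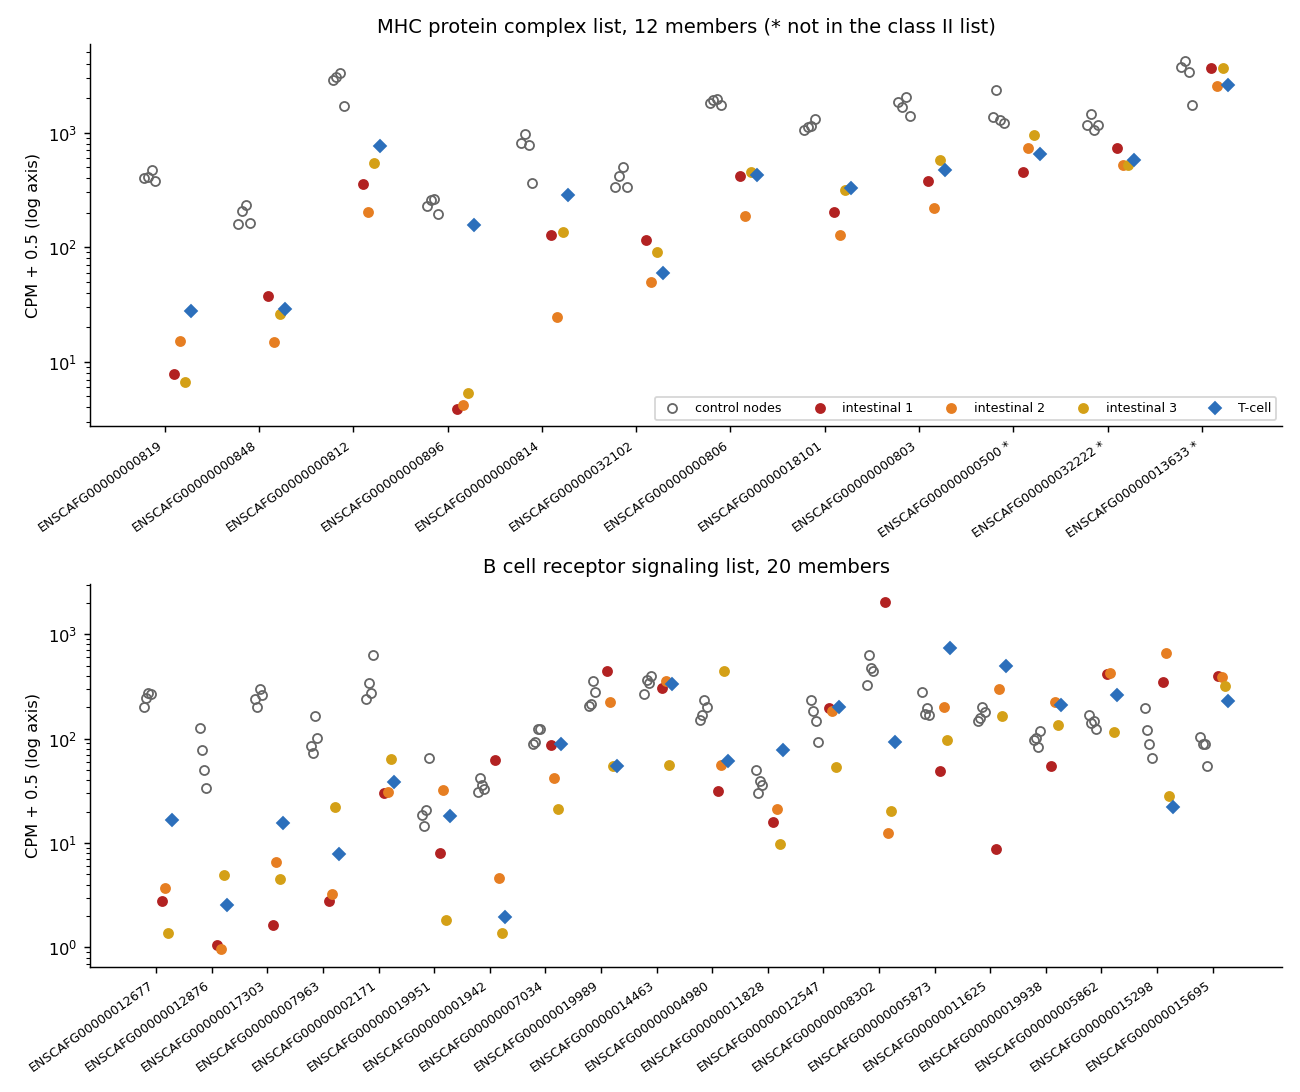
CPM plus 0.5 on a log axis (y axis) for each of the 12 members of the MHC list (upper panel) and the 20 members of the B cell receptor list (lower panel), ordered by fold change, with open circles for the 4 control nodes, filled circles for the 3 intestinal lymphomas and diamonds for the T-cell lymphoma. The 9 class II genes have all 4 tumours below all controls, whereas in the B cell receptor list the tumours spread widely around the controls outside the 4 called genes, ENSCAFG00000012876 and ENSCAFG00000015695, the last with all 4 tumours above all controls.

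Other lower genes shared by the 4 tumours lay outside these lists. ENSCAFG00000007036, listed under hematopoietic cell lineage, cell adhesion molecules and the immunoglobulin domain and named after its values were seen, had 819, 880, 1051 and 1246 CPM in the controls and 11.8, 16.2, 6.22 and 50.4 CPM in the tumours (-5.54, SE 0.448, adjusted p = 2.35e-10). It was also lower than in the B-cell lymphomas, which had 693 to 2290 CPM. ENSCAFG00000018672, of the extracellular matrix binding and smooth muscle cell migration lists, had 21.2, 88.7, 32.6 and 24.7 CPM in the controls and 0, 0.463, 0.445 and 0.874 CPM in the tumours (adjusted p = 2.48e-06). The B-cell lymphomas were equally low in this gene, with 0 to 2.21 CPM. ENSCAFG00000012445, listed under negative regulation of viral genome replication, had 13.1 to 61.1 CPM in the controls, no count in any intestinal lymphoma and 1.75 CPM in the T-cell lymphoma (adjusted p = 4.11e-06). The 2 lower genes of largest fitted change had almost no reads in the tumours, ENSCAFG00000024786 with 3 counts over the 4 tumours against 408 over the controls, a ratio of 150 (95% counting interval 50.9 to 729), and ENSCAFG00000011672 with 1 count against 154, a ratio of 170 (30 to 6740). These intervals cover counting error only. FLT3, a receptor tyrosine kinase of early blood and dendritic cells, whose identifier is likewise given in the study's text, had 39, 29.4, 35.1 and 27.3 CPM in the controls and 3.67, 3.7, 6.22 and 5.83 CPM in the tumours. The groups did not overlap, but the adjusted p of 0.000145 missed 1e-05 (-2.74, SE 0.517), and in the model of the 8 samples it was 0.00379. The B-cell lymphomas had 0.278 to 6.49 CPM of FLT3 (median 3.17), against 3.67 to 6.22 CPM in the 4 tumours.

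The remaining lists held few called genes. Of 41 genes in the lists of matrix binding, smooth muscle cell migration and inhibition of endothelial cell migration, 1 was lower at 1e-05 and 3 were higher and 21 lower at 0.05, with a median of -1.46. In the same order, the shares over all genes tested were 0.587%, 21.4% and 15.9%. Of 17 genes of type I interferon production 1 was higher and 1 lower, the latter being ENSCAFG00000002171 of the B cell receptor list. The higher one, ENSCAFG00000000444, had 289 to 392 CPM in the controls and 732 to 998 CPM in the tumours (1.30, SE 0.142, adjusted p = 7.56e-08), and it was also the single called gene of the 18 in the adherens junction list. Of 20 genes that restrain viral genome replication 1 was lower. Of 96 long non-coding RNA genes tested from the study's list, 1 was lower at 1e-05, and 13 were higher and 39 lower at 0.05 (median -0.977), beside 21.4% and 15.9% of all genes tested, and 28 in place of 39 were lower without control replicate 4, where 92 could be tested. All 4 tumours lay below every control in 31 of the 96 and above in 10, beside 13.5% and 12.3% of all genes. The study had listed these genes, and the miRNA genes below, as differentially expressed against these controls in lymphomas or cell lines. A larger share than over all genes is therefore no independent evidence. The called long non-coding RNA gene, ENSCAFG00000038813, had 16.5, 27.9, 24.1 and 32.2 CPM in the controls. It had no count in the intestinal lymphomas and 2.04 CPM in the T-cell lymphoma. None of 9 miRNA genes was called at 1e-05, and 2 were lower at 0.05, ENSCAFG00000030445 and ENSCAFG00000032467, named after their values were seen. ENSCAFG00000030445 had 191, 203, 250 and 277 counts in the controls and 108, 128, 31 and 38 counts in the tumours (-1.67, adjusted p = 0.00321, and 0.00674 without control replicate 4). The call of ENSCAFG00000032467 rested on control replicate 4, which held 148 counts while the other controls and the tumours held 0, and its adjusted p went from 0.000388 to 1 without that sample. All cell line cultures had reads of this gene, with 6.79 to 18.5 CPM in OSW and 15.8 to 27.7 CPM in CL-1. The B-cell lymphomas had at most 0.383 CPM. Among the tissue samples only control replicate 4, with 55.4 CPM, had such a level, and the reason was not tested. ENSCAFG00000020626 also had its highest control level in control replicate 4 (15.4 CPM, next 1.83). Without control replicate 4 ENSCAFG00000032629 was lower (-1.28, adjusted p = 0.0463) and ENSCAFG00000020626 higher (3.20, adjusted p = 0.00329) at 0.05.

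The next comparison asked which changes belonged to the 3 intestinal lymphomas only. Against the controls, the intestinal lymphomas were higher in 197 genes (1.3%) and lower in 88 (0.58%). Of these, 21 higher and 12 lower genes had every intestinal lymphoma beyond every control and the T-cell lymphoma within the range of the controls or on its other side. This pattern of position alone was met by 455 (3%) and 504 (3.32%) of all genes tested. All 33 genes also differed between the intestinal lymphomas and the T-cell lymphoma at an adjusted p of at most 0.05, a test that called 374 higher (2.47%) and 530 lower (3.5%) genes in all. The T-cell side of that test is 1 dog, assumed to vary like the other groups. The 33 genes had been chosen by the position of the T-cell lymphoma in the same data. The outcome of the test was therefore largely set by that choice and is no added support. The 21 higher genes went to 4, 4, 6 or 3 without control replicate 1, 2, 3 or 4, the 12 lower genes to 5 without control replicate 1 or 3 and to 6 without control replicate 4 or intestinal lymphoma replicate 1 or 3. All higher genes of the intestinal lymphomas, 197 as reported, numbered 74, 66, 83 or 30 without control replicate 1, 2, 3 or 4 and 113 without intestinal lymphoma replicate 1. The 33 kept their direction and passed 0.05 in the model of the 8 samples alone, which were the samples they had been chosen on, so this is no added support.

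Among the 3 intestinal lymphomas the median ratio of the highest to the lowest level was 2.95 in the 21 higher genes, beside 2.28 over all genes tested. Of the 4 tumours intestinal lymphoma replicate 1 was highest in 12 of the 21, where the T-cell lymphoma could by choice not be highest. That share, too, was not counted over all genes tested. ENSCAFG00000001835, listed under the G2/M transition, had 18.6, 8.48, 20.4 and 12.7 CPM in the controls, 500, 175 and 84.9 CPM in the intestinal lymphomas and 0.291 CPM in the T-cell lymphoma. The T-cell lymphoma lay below the controls in this gene, with 1 count (log2 fold change of the intestinal lymphomas 4.06, SE 0.559, adjusted p = 2.8e-06). The T-cell line OSW had 164 to 191 CPM and the B-cell lymphomas 1.11 to 11.6 CPM. ENSCAFG00000010148, listed under microRNAs in cancer, had 2.96, 14.5, 9.76 and 13.9 CPM in the controls, 34.4, 310 and 273 CPM in the intestinal lymphomas and 0.874 CPM in the T-cell lymphoma (4.32, SE 0.599, adjusted p = 3.14e-06). OSW and CL-1 had 121 to 242 and 205 to 229 CPM, and the B-cell lymphomas at most 3.17 CPM. These 2 were the members of the set with a functional term, and they were named after their values were seen.

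The gene of largest change, ENSCAFG00000009144, had at most 1 count in each control and 1182, 13.9 and 1.33 CPM in the intestinal lymphomas, the last from 3 counts. Its ratio to the controls, 2750 (95% counting interval 760 to 22700), rests on intestinal lymphoma replicate 1, which held 4193 of the 4226 counts. ENSCAFG00000029024 had 0.847, 2.49, 8.54 and 8.62 CPM in the controls, 895, 484 and 8.89 CPM in the intestinal lymphomas and no count in the T-cell lymphoma, so that intestinal lymphoma replicate 3 was barely above the highest control. In the test of the 4 tumours against the B-cell lymphomas, 12 of the 21 genes were higher at 1e-05 (background 3.11%). That test includes the T-cell lymphoma, and the intestinal lymphomas without it were not tested against the B-cell lymphomas.

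In the 12 lower intestinal genes the T-cell lymphoma was, by choice, not below the controls. It lay within their range in 6 and above all of them in the other 6, with a median log2 fold change of 0.18, against -3.40 in the intestinal lymphomas. At 0.05 the T-cell lymphoma was higher than the controls in 3 of the 12. ENSCAFG00000003935 had 21.6, 36.4, 30.2 and 29.6 CPM in the controls, 0.846, 0 and 0 CPM in the intestinal lymphomas and 43.7 CPM in the T-cell lymphoma. The T-cell lymphoma stood above all controls, and the ratio of the controls to the intestinal lymphomas was 77.4 (95% counting interval 26.2 to 378, from 302 and 3 counts; adjusted p = 1.05e-09). ENSCAFG00000018037 had 258, 474, 508 and 172 CPM in the controls, 2.82, 2.78 and 19.6 CPM in the intestinal lymphomas and 298 CPM in the T-cell lymphoma (-5.43, SE 0.599, adjusted p = 9.91e-08). The long non-coding RNA gene ENSCAFG00000038987 had 142, 105, 107 and 56.9 CPM in the controls, 3.1, 8.34 and 4 CPM in the intestinal lymphomas and 104 CPM in the T-cell lymphoma (-4.35, SE 0.563, adjusted p = 1.35e-06). In all 3 genes the T-cell lymphoma was the one tumour not below the controls. No gene of the 12 had a term in the functional tables.

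**Figure D4:**
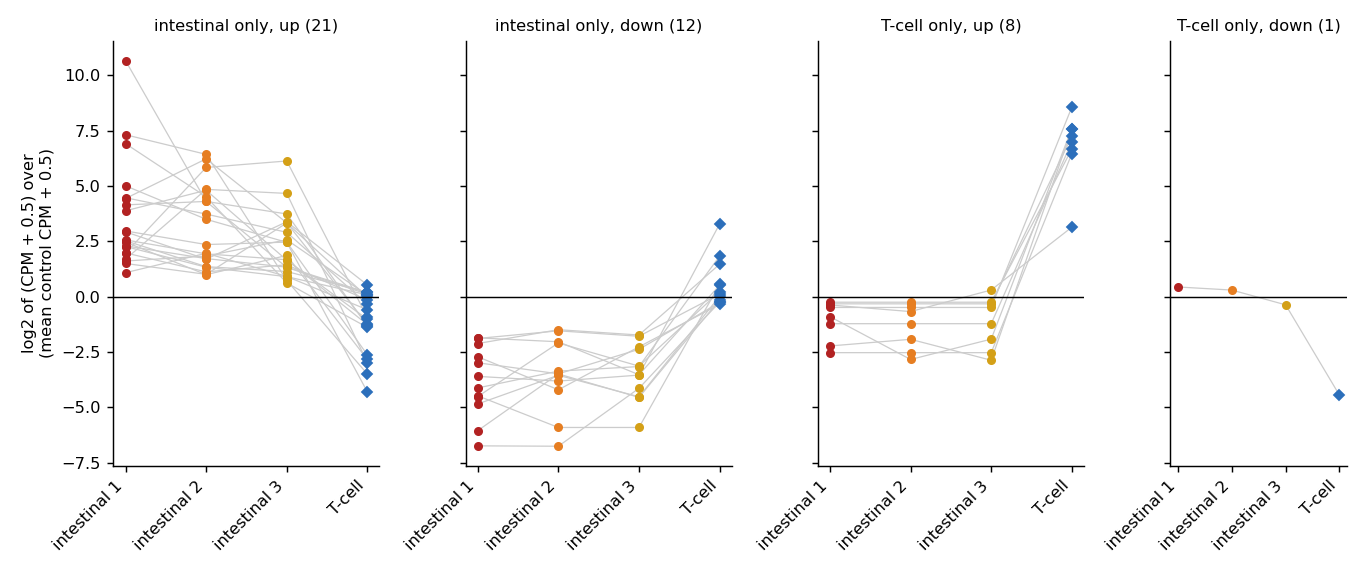
Log2 ratio of each tumour's CPM plus 0.5 to the mean control CPM plus 0.5 (y axis) for the genes changed in the intestinal lymphomas only (21 up, 12 down) and in the T-cell lymphoma only (8 up, 1 down), with a grey line joining the 4 tumours (x axis) for each gene. These positions chose the genes, and the plot shows how far the 4 tumours stand apart in each gene.

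In the T-cell lymphoma 47 genes were higher (0.31%) and 3 were lower (0.0198%) than in the controls at 1e-05. These 50 genes went to 24, 25, 17 or 14 without control replicate 1, 2, 3 or 4. In 8 of the higher genes and 1 of the lower genes no intestinal lymphoma lay beyond the controls on that side, a pattern of position that 825 (5.44%) and 654 (4.31%) of all genes met, and all 9 differed from the intestinal lymphomas at 0.05. That difference, too, was largely set by how the genes were chosen. ENSCAFG00000037748 had 901 counts in the T-cell lymphoma (263 CPM), 2 over the 4 controls and none in the intestinal lymphomas. The level was at least 696-fold higher than in the intestinal lymphomas, taking 3 counts over the group as the floor. ENSCAFG00000003927 had 323 counts (94.1 CPM) in the T-cell lymphoma, 1 in the controls and none in the intestinal lymphomas, and was at least 250-fold higher than in the latter. The lower gene, ENSCAFG00000012197, had 45.7, 50.4, 44.8 and 27.3 CPM in the controls, 57.2, 51.9 and 32.5 CPM in the intestinal lymphomas and 1.46 CPM in the T-cell lymphoma (-4.81, SE 0.523, adjusted p = 5.07e-07). The intestinal lymphomas overlapped with the controls there. None of the 9 genes had a term in the functional tables.

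The T-cell lymphoma was not the most divergent of the 4 tumours by position. The number of genes in which the other 3 tumours lay beyond all controls and the named one did not was 471 above and 504 below for intestinal lymphoma replicate 1, 335 and 464 for replicate 2, 516 and 556 for replicate 3, and 455 and 504 for the T-cell lymphoma. Intestinal lymphoma replicate 3 thus gave more such genes than the T-cell lymphoma in both directions. Genes in which 1 tumour alone lay beyond the controls numbered 982 above and 840 below for intestinal lymphoma replicate 3 and 825 and 654 for the T-cell lymphoma. The 4 replication and chromosome lists, with 54 genes together, contributed no gene to the intestinal sets. These sets held only 21 and 12 of 15162 genes, so that none is near the share over all genes. The medians of the 4 lists were close in the 2 kinds of tumour (1.23 to 2.29 in the intestinal lymphomas and 1.29 to 2.06 in the T-cell lymphoma). The matrix binding list had medians of -1.22 and -3.18 in the intestinal and T-cell tumours, with 1 of its 13 genes differing between them at 0.05.

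**Figure D5:**
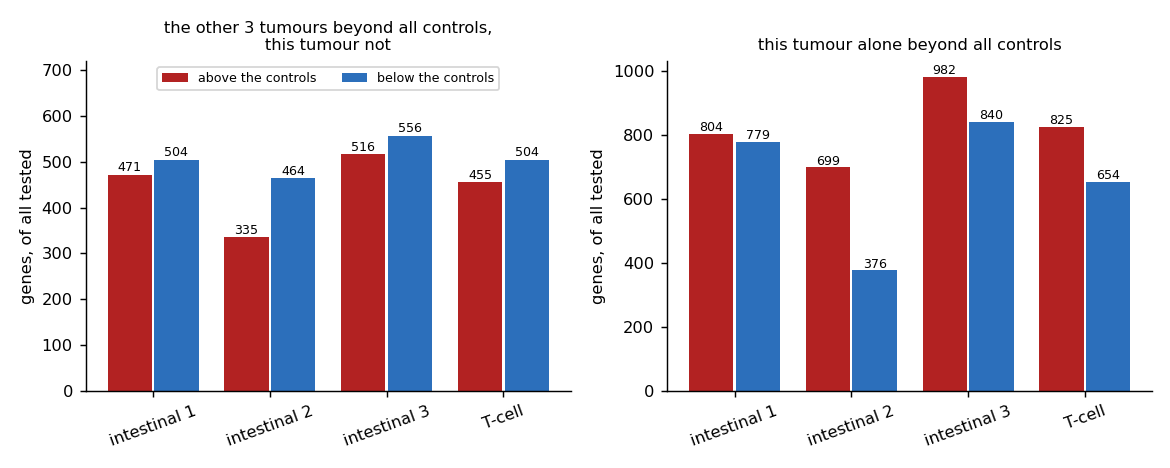
Number of genes, of 15162 tested (y axis), in which the other 3 tumours lay beyond all 4 controls and the named tumour did not (left), or in which the named tumour alone did (right), above (red) or below (blue) the controls. The T-cell lymphoma, with 455 and 504 genes on the left, lies within the range of the 3 intestinal lymphomas (335 to 516 and 464 to 556).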

How the data were processed

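Per the study's methods, poly-A RNA (NEBNext Ultra kit) was sequenced as paired-end reads. BWA placed the reads on CanFam3.1, Picard and samtools took out duplicates and poorly mapped reads, and HTSeq 0.6.1 assigned the rest to Ensembl genes. The authors deposited raw counts per gene, without normalization. The strand setting is not given in the sources used here, and so antisense and overlapping genes are uncertain. Identifiers starting with ENSCAFG were kept; the 5 totals at the end of each file, which hold the reads on no gene, were left out.

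Of 32704 genes, 25270 had a count and 15162 passed the filter, a highest CPM above the 40th percentile. edgeR 4.0.16 (R 4.3.3, TMM) fitted quasi-likelihood models to all 37 samples with 8 groups, or 9 with the T-cell lymphoma as a group of its own. Benjamini-Hochberg adjusted p-values were held to 1e-05, or 0.05 between the tumours. SE was the log2 fold change over the root of F. The fits were tested on simulated data. Alternatives were RLE scaling, other filters, DESeq2 1.42.0, smaller sample sets, 0.05 as threshold, a replicate block and leaving out samples; the smaller sets at 0.05, and the lists at 0.05 without control replicate 4, were added after seeing the data.

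The samples, lists and tests were chosen with earlier results of these data known. RefSeq names could be paired with none of the identifiers, so cell type markers, symbol lists, coordinates and promoter sequences were not used here. Named genes were the 2 genes of largest change each way in each set, the first listed member of the DNA replication keyword, MHC and B cell receptor lists, the most changed called member each way of every list, SHCBP1 and FLT3; genes outside this rule are said to be chosen after their values were seen, and the B cell receptor members without a call and the class II members described singly were chosen so too. The fold changes and the list of differential protein-coding genes in the study's supplement were not used directly. Its lists of differential miRNA and long non-coding RNA genes served as gene lists. The functional tables, too, cover genes that the study had called differential.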

Additional observations from a re-analysis of the deposited data

Results flagged for a closer look

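In 82 groups of 4 samples, each a measure in the 4 controls or the 4 tumours, a sample standing apart from the other 3 by Dixon's criterion was looked for. It was found in 16. The usual rate of 1 in 20 for this criterion does not apply here. The criterion was run on CPM without a log scale, and many of the genes had been chosen by these same values. The T-cell lymphoma stood above the 3 intestinal lymphomas in ENSCAFG00000037748 (263 CPM, next 0), ENSCAFG00000018037 (298, next 19.6), ENSCAFG00000038987 (104, next 8.34), ENSCAFG00000003927 (94.1, next 0), ENSCAFG00000003935 (43.7, next 0.846), ENSCAFG00000001520 (18.4, next 1.33), ENSCAFG00000012677 (16.3, next 3.24), ENSCAFG00000038813 (2.04, next 0) and ENSCAFG00000012445 (1.75, next 0). Several of these genes had been chosen for that difference. Intestinal lymphoma replicate 1 stood above the other tumours in ENSCAFG00000009144 (1180 CPM, next 13.9), ENSCAFG00000001942 (61.5, next 4.17) and ENSCAFG00000011672, where its 0.282 CPM was 1 count. Among the controls, replicate 2 stood apart in ENSCAFG00000000500 (2340 CPM, next 1360), ENSCAFG00000018672 (88.7, next 32.6) and ENSCAFG00000003927, where its 0.499 CPM was 1 count. Control replicate 4 had 0.476% of its reads on several genes, next 0.143%.

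Of the 37 genes looked at singly, 17 differed between the intestinal lymphomas and the T-cell lymphoma at an adjusted p of at most 0.05 (edgeR). The log2 differences, intestinal minus T-cell, were positive in ENSCAFG00000029024 (13.41), ENSCAFG00000009144 (10.23), ENSCAFG00000001835 (9.57), ENSCAFG00000010148 (7.81), ENSCAFG00000012197 (4.98) and ENSCAFG00000001900 (3.11). They were negative in ENSCAFG00000037748 (-12.59), ENSCAFG00000003927 (-11.11), ENSCAFG00000003935 (-6.75), ENSCAFG00000038813 (-5.61), ENSCAFG00000012445 (-5.40), ENSCAFG00000018037 (-5.19), ENSCAFG00000038987 (-4.37), ENSCAFG00000001520 (-4.36), ENSCAFG00000012677 (-2.91), ENSCAFG00000007036 (-2.14) and ENSCAFG00000017303 (-2.08). Values of genes without a count on one side depend on the prior count of the fit and are no bound. The genes of the intestinal and T-cell sets were chosen partly by this difference.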

How the results depend on the processing

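The log2 fold changes of the 37 genes looked at singly kept their sign under each alternative that could give them, and the 0 calls at 1e-05 in the model of the 8 samples alone lay beside 4675 genes at an unadjusted p under 0.05. In what follows, counts are given in the order 4 tumours against controls, changes in all 4 tumours, intestinal lymphomas against controls and changes in the intestinal lymphomas only, each as higher and lower genes, and then all genes called in the T-cell lymphoma. They were 201 and 89, 198 and 89, 197 and 88, 21 and 12, and 50. RLE scaling moved the higher genes to 118, 115, 110 and 12, and the T-cell count to 25. In the model of the 8 samples alone every one of these counts was 0. The model of the 20 tissue samples gave 1 and 11, 1 and 11, 0 and 17, 0 and 1, and 1, with 5589 genes at an unadjusted p under 0.05 for the 4 tumours. DESeq2 gave 416 and 431, 385 and 424, 435 and 419, 54 and 54, and 176. At 0.05 there were 3250 and 2416, 1740 and 1770, 3183 and 2419, 349 and 366, and 2494. The 8 samples alone gave, at 0.05, 981 and 1118, 929 and 1096, 981 and 1108, 137 and 172, and 260. The 20 tissue samples gave, at 0.05, 1888 and 1919, 1217 and 1646, 1840 and 1823, 249 and 278, and 897. The 904 genes that differed between the intestinal and T-cell tumours became 133 with the 8 samples and 275 with the 20 tissue samples. The cause of these shifts was not tested.

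With samples left out in turn, the counts ranged from 34 to 195 and 53 to 87 for the 4 tumours, from 34 to 191 and 53 to 87 for changes in all 4, from 30 to 191 and 52 to 68 for the intestinal lymphomas, from 3 to 31 and 5 to 14 for changes in these only, from 14 to 71 for the T-cell lymphoma, and from 839 to 1497 between the tumours. The lowest counts of higher genes came without control replicate 4, and the 1497 without intestinal lymphoma replicate 2. The replicate numbers were not taken as pairs, and the sources used here do not state whether a control came from the same dog as a tumour. Same-numbered controls and intestinal lymphomas deviated together with correlations of -0.0671, -0.204 and 0.0202 over genes. The T-cell lymphoma was not part of that check. With the replicate number as a block the counts were 51 and 45, 51 and 45, 51 and 56, 9 and 5, and 10. At a floor of 0.766 to 1.53 CPM on the raw library totals, genes near 0 in a group were measured by a few counts only.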
